A study of Arabidopsis thaliana with 17 samples.

Results

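The genes described here are 32 early auxin-response genes of Arabidopsis thaliana among 37336 annotated features: 27 of the Aux/IAA repressor family, taken without IAA14 and IAA28, and 5 GH3 genes (GH3.1, GH3.2, GH3.3, GH3.5 and GH3.6). They were chosen by gene identity, when earlier results of these data were known. The study as a whole concerns the transcription factor subunit NF-YA2 and the long non-coding RNA BAMBOO. Whole roots of 14-day-old plants, grown under mock conditions on Murashige and Skoog medium with sucrose, were profiled by RNA-seq, which reads polyadenylated transcripts. The groups used were bamboo (genotype bamboo, 2 libraries numbered 2 and 3), the wild type Col-0-b (genotype Col-0, 3 libraries) and a further wild-type set, Col-0 (genotype Col-0, 3 libraries). The design text calls bamboo a mutant, whereas the letters KD stand in the title of the deposited table, and the kind of change is not stated. Whether bamboo is 1 line or several, and whether libraries came from separate plantings, is not stated either, so p-values measure the spread between these samples, which may be technical. The bamboo libraries were compared with Col-0-b to ask whether the auxin response of roots differs in bamboo.

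Aux/IAA proteins are short-lived nuclear repressors. At low auxin they bind auxin response factors (ARFs) at target promoters and recruit TOPLESS co-repressors. Auxin acts as a glue between the Aux/IAA degron and the TIR1/AFB F-box receptors, the repressor is degraded and the ARF is released. Most Aux/IAA genes are themselves ARF targets, so they form a negative feedback. Group II GH3 enzymes, to which these 5 belong, conjugate indole-3-acetic acid to amino acids and thereby lower free auxin, and their transcripts too are classical early readouts of auxin. In roots this module shapes meristem size, gravitropism, root hairs and lateral roots.

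The table for bamboo and Col-0-b held normalized counts, in which each library's gene counts had been scaled by its own size factor. Depth was 16963843 to 24333119 reads a library there and 13637179 to 21206367 in Col-0. All 10 root markers had reads in all 8 libraries, with a summed level of 960 to 1127 CPM (a count divided by its library's total reads and rescaled). PHO1 alone gave 394 to 565 CPM of that sum, which hides differences of single markers. NRT2.1 had 2.07 to 4.06 CPM in Col-0 and 35.7 to 67.6 in the other libraries. The 10 photosynthetic genes taken as markers of shoot tissue summed to 177 CPM in Col-0-b replicate 1, 95.5 in replicate 2, 85.6 in replicate 3, 117 and 126 in the bamboo libraries, and 74.1 to 85.3 in Col-0. Of these markers, none was at 0 in Col-0-b replicate 1 and 0 to 2 were in the other libraries. CAB2, a chlorophyll-binding protein, had 140 normalized counts in Col-0-b replicate 1 and 1.23 to 5.08 in the other 4 libraries of that table. Bamboo replicate 2 stood apart on the first principal component (44.7% of the variance), at -34.7, with bamboo replicate 3 at -6.45 and Col-0-b at 8.56 to 21.9. The part of shoot RNA or of that library in the values below was not tested.

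No Aux/IAA or GH3 transcript differed between bamboo and Col-0-b beyond the spread of the libraries at an adjusted p of 0.05. Of the 32 members, 28 reached the minimum level of 10 normalized counts in at least 2 libraries, and each of the 28 did so in at least 1 library of both genotypes. Of these, 0 were called by limma with Benjamini-Hochberg adjustment over all 20274 tested features, where 14 features (0.0691%) were called as higher and 13 (0.0641%) as lower. The smallest adjusted p among members was 0.156. At an unadjusted p under 0.05, 4 members were higher (IAA17, GH3.2, IAA31 and IAA26) and 1 was lower (GH3.5), against 8.6% and 8.21% of all tested features. On whole reads recovered from the table, edgeR also called 0 members (4 higher and 1 lower at an unadjusted p under 0.05), and DESeq2 called 0 (2 and 0), giving no adjusted p to 4 of the 28.

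The differences were small and mostly on the same side of 0. The log2 fold change (bamboo minus Col-0-b) was positive in 24 of 28 tested members and negative in 4, with a median of 0.13, while 49.9% of all tested features were positive, with a median of 0.00. Of the 10 photosynthetic markers, 7 were tested, and 7 of 7 had positive log2 fold changes, with a median of 0.16. Among them were PSBO1, a photosystem II protein, at 0.26 (limma adjusted p = 0.275) and LHCA3, an antenna protein, at 0.26 (adjusted p = 0.411). Mean normalized counts were, however, higher in bamboo only for PSBO1, LHCA1 and LHCA3. The untested CAB2, RBCS2B and RBCS3B had means of 3.47, 0 and 3.64 in bamboo and 47.7, 19.3 and 44.0 in Col-0-b. Col-0-b replicate 1 was the highest library for these untested markers. The part of shoot markers in the members' values was not tested. In none of the 7 tested markers did the libraries of the genotypes separate. For the 23 tested Aux/IAA genes alone 21 were positive (median 0.17), and for the 5 GH3 genes 3 were (median 0.01). In 13 of 28 members both bamboo libraries lay above all 3 Col-0-b libraries, which 17.1% of all tested features showed, and in 1 member both lay below, which 17.5% showed. The members' median deviation from the Col-0-b mean was 0.21 in bamboo replicate 2, with 25 of 28 above it, and 0.10 in bamboo replicate 3, with 20 of 28 above it. Members share libraries, so these counts describe 5 libraries and are not 28 independent observations. The 95% interval of the fold change stayed within a 2-fold change in either direction for 23 members and reached it for the other 5 (IAA6, IAA20, IAA29, IAA30 and IAA31), all with under 60 normalized counts in all 5 libraries.

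**Figure D1:**
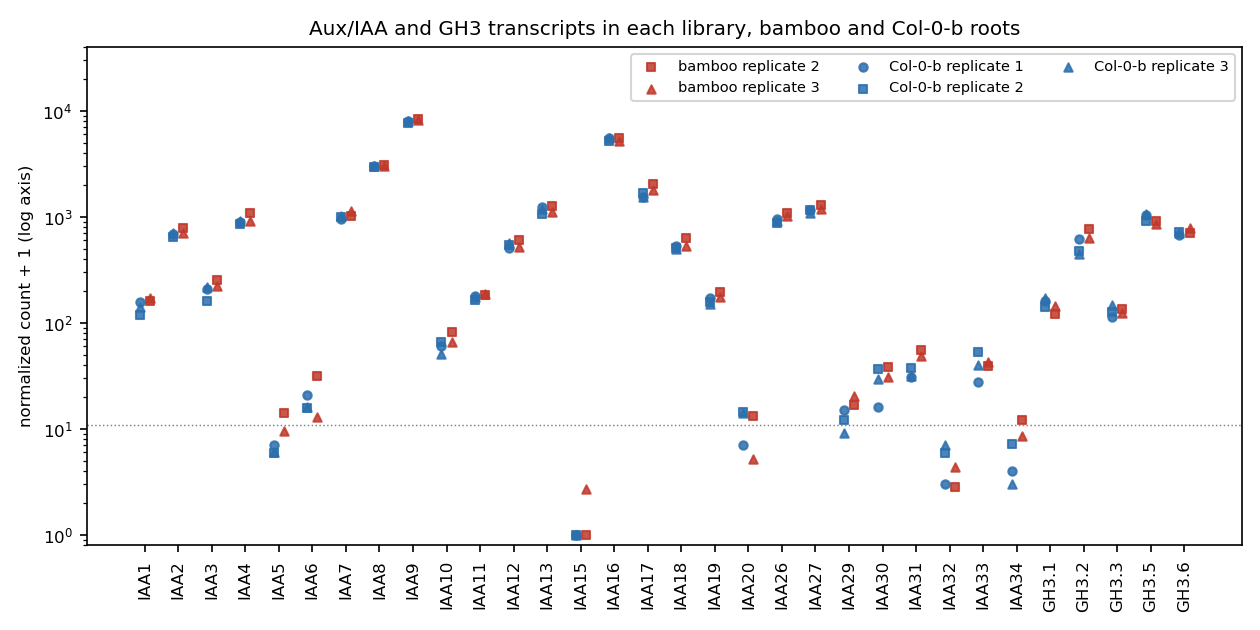
Normalized counts plus 1 (log axis) of the 32 members in each library, with Col-0-b in blue on the left of each gene and bamboo in red on the right; the dotted line marks the minimum level of 10. Libraries lie close together for IAA8, IAA9 and IAA16, and IAA5, IAA15, IAA32 and IAA34 lie at or near the minimum or below it.

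**Figure D2:**
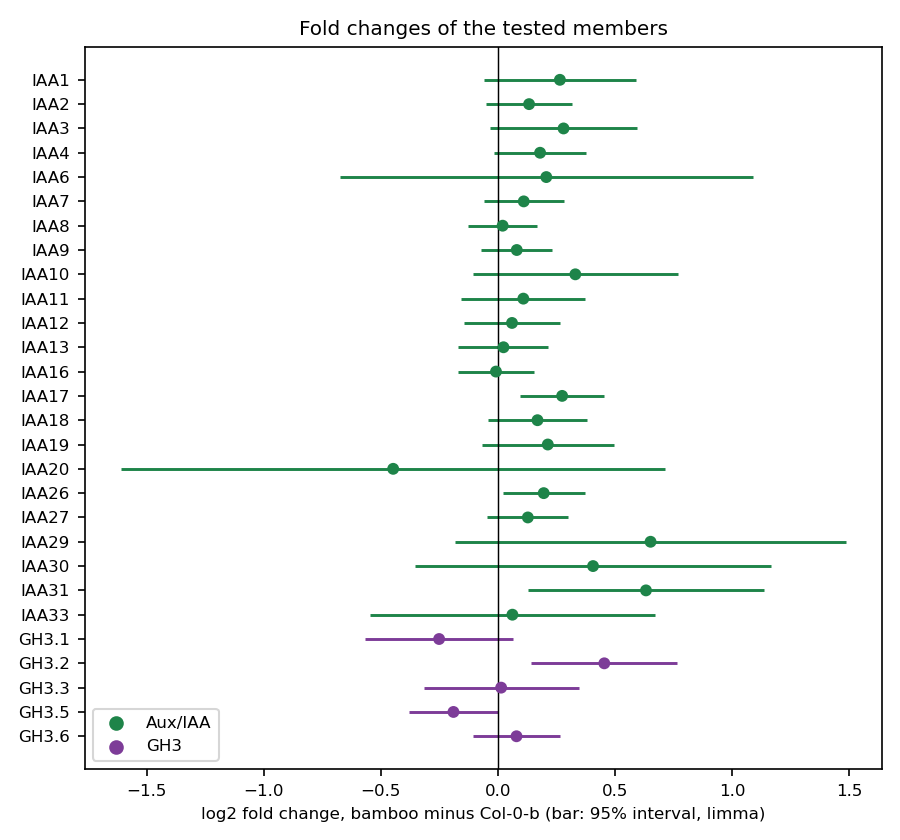
Log2 fold change, bamboo minus Col-0-b, of the 28 tested members; points are limma estimates from 2 and 3 libraries and bars their 95% intervals. Most Aux/IAA points (green) lie right of 0 with intervals that include it, and the GH3 points (purple) lie on both sides.

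IAA17, also called AXR3, whose stabilised form disturbs root gravitropism and root hairs, had the smallest p of the members. Its gene, AT1G04250, had 2058 and 1773 normalized counts in bamboo replicates 2 and 3 and 1531, 1666 and 1543 in Col-0-b replicates 1, 2 and 3. Both bamboo libraries were above all Col-0-b libraries, bamboo replicate 2 by more. On the log2 scale bamboo exceeded Col-0-b by 0.27 (SE 0.08, 95% interval 0.09 to 0.45, limma adjusted p = 0.156). Without bamboo replicate 3 it was 0.38 (adjusted p = 0.0145), with adjusted p-values from 0.0145 to 0.607 over 11 alternatives, 1 of which called it. Its closest relatives in the family differed less: IAA7 (AXR2) had a log2 fold change of 0.11 (adjusted p = 0.505), with 1008 and 1127 normalized counts in bamboo and 957 to 1009 in Col-0-b. IAA16 (AT3G04730) had 5565 and 5224 normalized counts in bamboo and 5595, 5142 and 5545 in Col-0-b. The IAA16 groups overlapped fully, and the log2 fold change was -0.01 (SE 0.07, 95% interval -0.17 to 0.15, adjusted p = 0.968).

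In the clade of IAA1, IAA2, IAA3 and IAA4, strongly auxin-inducible repressors, both bamboo libraries lay above all Col-0-b libraries for all 4 members (median log2 fold change 0.22, range 0.13 to 0.28), a separation in that direction shown by 17.1% of all tested features. Without bamboo replicate 2 the values of IAA2 and IAA4 were 0.05 and 0.04. The genes were grouped by relationship after their values were seen. IAA3, or SHY2, the repressor through which cytokinin limits root meristem size, had 251 and 223 normalized counts in bamboo and 209, 161 and 218 in Col-0-b (AT1G04240). The bamboo values were above the Col-0-b range, and bamboo replicate 3 was close to its upper end. The log2 fold change was 0.28 (SE 0.14, 95% interval -0.03 to 0.59, limma adjusted p = 0.35). IAA1 (AT4G14560, AXR5) had 161 and 170 normalized counts in bamboo and 158, 118 and 140 in Col-0-b. Its lowest bamboo value stood just above Col-0-b replicate 1, and the log2 fold change was 0.26 (SE 0.15, adjusted p = 0.39). IAA4 (AT5G43700) had 1098 and 908 normalized counts in bamboo and 886, 853 and 906 in Col-0-b. The gap of bamboo replicate 3 to the highest Col-0-b library was small, and the log2 fold change was 0.18 (SE 0.09, adjusted p = 0.337); without bamboo replicate 3 it was 0.32 (adjusted p = 0.037), with adjusted p-values from 0.037 to 0.942 over 11 alternatives, 1 of which called it. IAA2 had a log2 fold change of 0.13 (adjusted p = 0.447).

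IAA26 (AT3G16500), which was found as a phytochrome-associated protein, had 1087 and 1008 normalized counts in bamboo and 963, 866 and 915 in Col-0-b. The groups did not overlap, and the log2 fold change was 0.20 (SE 0.08, 95% interval 0.02 to 0.37, limma adjusted p = 0.251). Its relative IAA18, known from gain-of-function lines with fewer lateral roots, had a log2 fold change of 0.17 (adjusted p = 0.395), 0.04 without bamboo replicate 2, and overlapping groups. Among IAA8, IAA9 and IAA27, all 3 were positive by 0.02 to 0.13. IAA9 (AT5G65670), a repressor active in leaf and vascular development, had 8394 and 8280 normalized counts in bamboo and 7976, 7711 and 7970 in Col-0-b. The IAA9 groups did not overlap, but the log2 fold change was 0.08 (SE 0.07, 95% interval -0.07 to 0.23, adjusted p = 0.586). IAA8 (AT2G22670) had 3053 and 3030 normalized counts in bamboo and 3034, 2979 and 2986 in Col-0-b. These 5 values nearly coincided, and the log2 fold change was 0.02 (SE 0.07, 95% interval -0.13 to 0.17, adjusted p = 0.912).

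IAA10, IAA11, IAA12 and IAA13 had log2 fold changes of 0.02 to 0.33. They include IAA12, or BODENLOS, the partner of the ARF MONOPTEROS in forming the embryonic root, at 0.06 (adjusted p = 0.79) and its close relative IAA13 at 0.02 (adjusted p = 0.922). IAA10 was at 0.33 with overlapping groups (adjusted p = 0.425) and IAA11 at 0.11. IAA19, or MSG2, which acts with ARF7 in tropic growth, had 195 and 174 normalized counts in bamboo and 151 to 170 in Col-0-b, which gave a log2 difference of 0.21 (adjusted p = 0.421). Its relative IAA6 had 30.8 normalized counts in bamboo replicate 2 and 11.9 in bamboo replicate 3, on either side of the Col-0-b range of 14.8 to 20.0. IAA29, a target of phytochrome-interacting factors in shoots, had 15.8 and 19.5 normalized counts in bamboo and 8.11 to 14.0 in Col-0-b, the highest fold change of the members on the log2 scale, 0.65 (SE 0.38, adjusted p = 0.407).

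The remaining Aux/IAA genes encode proteins with no canonical degron (IAA20, IAA30, IAA32, IAA33 and IAA34) or a changed one (IAA31), so that auxin speeds their breakdown through TIR1 little or not at all. IAA31 (AT3G17600) had 54.1 and 47.5 normalized counts in bamboo and 29.98, 37.0 and 30.4 in Col-0-b, from 30 reads in each Col-0-b library and 58 and 56 in bamboo. Both bamboo libraries were above the Col-0-b range. The log2 fold change was 0.63 (SE 0.23, 95% interval 0.13 to 1.14, limma adjusted p = 0.211), and leaving out any 1 library kept it between 0.54 and 0.73. IAA30 had a value of 0.41 (adjusted p = 0.581), 0.06 without Col-0-b replicate 1, with overlapping groups, IAA33 of 0.06 (adjusted p = 0.936) and IAA20 of -0.45 (SE 0.53, adjusted p = 0.706). IAA20 rested on 5 to 13 reads a library.

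Transcripts of 4 members were too scarce to test. IAA5 had 14 and 10 reads in bamboo and 6, 4 and 5 in Col-0-b. IAA34 had 12 and 9 reads in bamboo and 3, 5 and 2 in Col-0-b. IAA32 had 2 to 6 reads a library, and IAA15 had 0 reads in 4 libraries and 2 in bamboo replicate 3. A count of 0 allows up to 3 reads, which is 0.123 to 0.177 CPM in these libraries, counting error only. IAA5 and IAA34 were higher in both bamboo libraries than in all Col-0-b libraries, at counts of 14 reads or fewer.

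The GH3 genes did not move as a block. GH3.2 (AT4G37390, BRU6) had 770 and 637 normalized counts in bamboo and 622, 481 and 446 in Col-0-b. Bamboo replicate 3 lay just above Col-0-b replicate 1, and the log2 fold change was 0.45 (SE 0.14, 95% interval 0.14 to 0.77, limma adjusted p = 0.172). GH3.5 (AT4G27260, WES1), an enzyme that also acts on salicylic acid, was the member in which both bamboo libraries lay below all Col-0-b libraries, with 909 and 850 normalized counts against 1042, 912 and 1061. Bamboo replicate 2 and Col-0-b replicate 2 were nearly equal there. The GH3.5 log2 fold change was -0.19 (SE 0.09, adjusted p = 0.294). GH3.1 (AT2G14960) had 119 and 144 normalized counts in bamboo and 159, 142 and 169 in Col-0-b. Its groups overlapped at the lower Col-0-b library, with a log2 difference of -0.25 (SE 0.15, adjusted p = 0.402) that was -0.12 without bamboo replicate 2. GH3.3 (AT2G23170) and GH3.6 (AT5G54510, DFL1), which act with GH3.5 in adventitious rooting, had overlapping groups. GH3.3 had 134 and 124 normalized counts in bamboo and 113, 127 and 145 in Col-0-b, a log2 difference of 0.01 (SE 0.15, adjusted p = 0.974). GH3.6 had 697 and 787 normalized counts in bamboo and 676, 720 and 709 in Col-0-b, a log2 difference of 0.08 (SE 0.09, adjusted p = 0.667).

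Lists of 40 other genes, in 6 roles in or beside auxin response, gave 0 limma calls among 38 tested, against 0.133% of all features. At an unadjusted p under 0.05, 4 were higher and 9 lower, against 8.6% and 8.21% of all features. edgeR called 0 of them (4 and 8 unadjusted), and DESeq2 called GH3.17 and DAO2 as higher and AFB1 as lower. Over all 20274 tested features, DESeq2 called 188 as higher and 115 as lower. Without bamboo replicate 3 the limma log2 fold changes of GH3.17, DAO2 and AFB1 were 0.45, 0.60 and -0.76. Without bamboo replicate 2 they were 0.38, 0.22 and -0.42. Fold changes of the auxin receptors TIR1 and AFB1 to AFB5 were negative in 5 of 6 (median -0.17), and 4 of the 6 had both bamboo libraries below all Col-0-b libraries, against 17.5% of all features. AFB1, the receptor of rapid auxin responses in roots, had 828 and 1047 normalized counts in bamboo and 1342, 1257 and 1646 in Col-0-b, a log2 difference of -0.59 (SE 0.13, limma adjusted p = 0.102). TIR1 was at -0.21 (SE 0.08, adjusted p = 0.214), and at -0.12 without bamboo replicate 2. The TOPLESS co-repressors were negative in 5 of 5 (median -0.18), with TPR2 at -0.22 (adjusted p = 0.213) and TPL at -0.20 (adjusted p = 0.248). Without bamboo replicate 2 these values were -0.14 and -0.09. The ARFs were negative in 10 of 15 (median -0.04). ARF3, or ETTIN, an atypical ARF, had 361 and 441 normalized counts in bamboo and 511 to 544 in Col-0-b (log2 fold change -0.40, SE 0.10, adjusted p = 0.113; -0.26 without bamboo replicate 2). ARF8, a target of the microRNA miR167, was at -0.28 (SE 0.11, adjusted p = 0.26), and at -0.07 without bamboo replicate 2, with bamboo replicate 3 at 1149 and the lowest Col-0-b library at 1150 normalized counts.

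Among the other GH3 enzymes, listed by family and including JAR1 and PBS3, GH3.17, which conjugates auxin to glutamate, came nearest to a call. It had 3668 and 3496 normalized counts in bamboo and 2764, 2742 and 2564 in Col-0-b. The groups were far apart relative to their spread, with a log2 difference of 0.41 (SE 0.07, 95% interval 0.26 to 0.57, limma adjusted p = 0.0554). The limma or other call against Col-0-b passed in 4 of 11 alternatives. DFL2 (GH3.10) was at 0.20 (adjusted p = 0.436), and GH3.4 had no read in the 5 libraries. Auxin oxidation and conjugate-hydrolysis genes were positive in 6 of 6 (median 0.13), with the dioxygenases DAO2 at 0.41 (SE 0.13, adjusted p = 0.193; 0.22 without bamboo replicate 2) and DAO1, which oxidises auxin, at 0.26 (SE 0.10, adjusted p = 0.215). Of the left-out Aux/IAA genes of lateral root initiation, IAA14 was at -0.03 (adjusted p = 0.921) and IAA28 at 0.13 (adjusted p = 0.502). The 10 markers of root cell types were positive in 5 and negative in 5, with 0 calls by limma. At an unadjusted limma p under 0.05, 4 were higher and 3 lower, against 8.6% and 8.21% of all features. Both bamboo libraries lay above all Col-0-b libraries in 4 and below them in 4, against 17.1% and 17.5%. The phosphate exporter PHO1 was at -0.36 (adjusted p = 0.0904, called in 3 of 11 alternatives), the root hair regulator RHD6 at -0.38 (adjusted p = 0.151, called in 2) and the auxin carrier PIN2 at -0.58 (adjusted p = 0.186). The nitrate transporter NRT2.1 was at 0.50 (adjusted p = 0.2), and the endodermal genes MYB36, PER64 and CASP1 were at 0.30, 0.28 and 0.21. The part of cell-type makeup in the members' values was not tested. In whole roots, fewer cells of a type and less RNA per cell cannot be told apart.

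**Figure D3:**
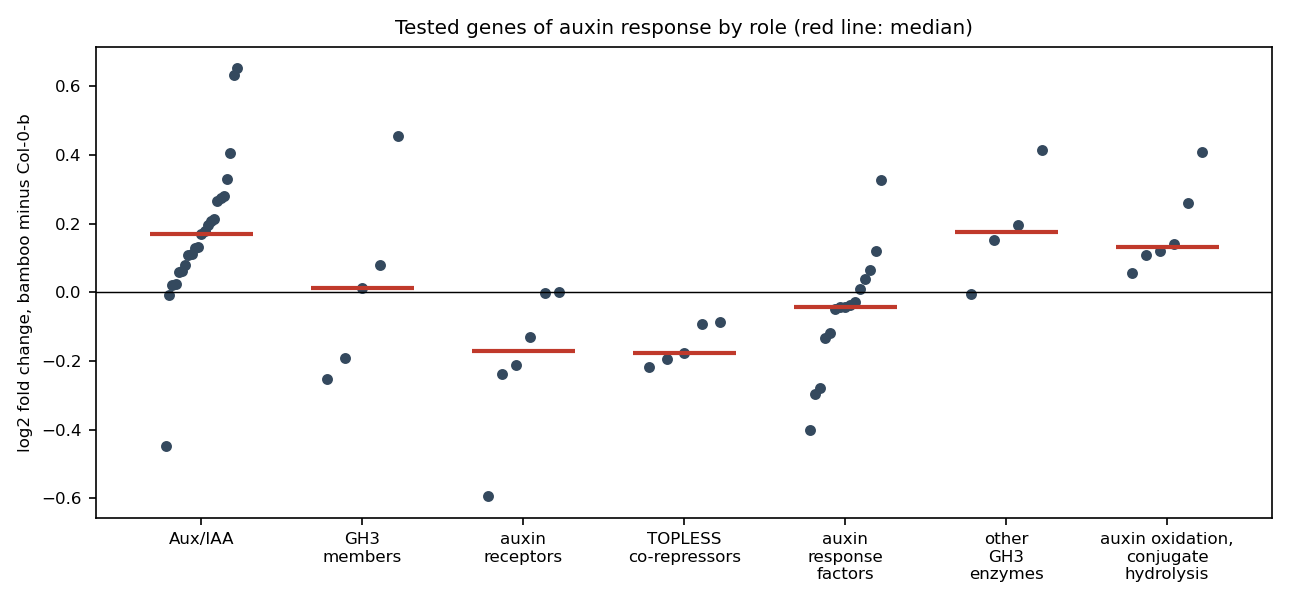
Log2 fold change, bamboo minus Col-0-b, of the tested genes in each listed role, with 1 point per gene and a red line at the median of each role. The Aux/IAA median is 0.17 and the receptor and TOPLESS medians are -0.17 and -0.18.

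For several members the gap between the wild-type sets was wider than that between bamboo and Col-0-b. They come from separate tables, so levels are set side by side in CPM with no test. The set cannot be told apart from any difference in growth, sequencing or processing. Root markers differed between these sets too, with NRT2.1 at a mean of 3.07 CPM in Col-0 and 41.4 in Col-0-b. MYB36 went the other way, at 28.1 and 15.8. Of 25 members with a mean of at least 1 CPM in either set, 15 had all 3 Col-0 libraries above all 3 Col-0-b libraries and 1, IAA18, had them all below, while 28.2% and 25.8% of 19505 features at that level did so. A mean at least 2-fold higher in Col-0 was seen for 5 of the 25 (IAA2, IAA3, IAA4, IAA10 and IAA31) against 5.41% of features, and a mean at least 2-fold higher in Col-0-b for 0, against 4.38%. The median ratio of Col-0 to Col-0-b was 1.36 over the 25 members and 1.02 over all features at that level with reads in both sets.

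In the clade of IAA1 to IAA4, the ratio of Col-0 to Col-0-b means was 1.75 for IAA1, 2.94 for IAA2, 3.4 for IAA3 and 2.23 for IAA4, and outside it IAA31, IAA10, IAA17 and GH3.6 had ratios of 2.21, 2.11, 1.87 and 1.85. IAA3 had 34.0, 31.3 and 30.9 CPM in Col-0 and 10.1, 7.72 and 10.5 in Col-0-b, and 11.8 and 10.8 in bamboo. IAA2 had 90.9, 101 and 97.1 CPM in Col-0, 33.3, 31.2 and 33.9 in Col-0-b, and 37.3 and 34.2 in bamboo. The bamboo values of both genes therefore lay near Col-0-b and far under Col-0. IAA4 had 94.3, 93.8 and 95.1 CPM in Col-0, 42.8, 40.8 and 43.7 in Col-0-b, and 51.8 and 44.1 in bamboo. IAA17 had 166, 152 and 108 CPM in Col-0, 73.9, 79.7 and 74.4 in Col-0-b, and 97.0 and 86.0 in bamboo. For IAA2, IAA3, IAA4 and IAA17 alike the bamboo libraries stood between the wild-type sets. IAA4 in bamboo replicate 3, at 44.1 CPM, was close to the highest Col-0-b library, at 43.7. IAA31 had 2.71 to 3.87 CPM in Col-0, 1.45 to 1.77 in Col-0-b, and 2.55 and 2.30 in bamboo.

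IAA7, IAA9, IAA11, IAA13, IAA16, IAA26 and IAA30 also had all Col-0 libraries above all Col-0-b libraries, at ratios of 1.23 to 1.7. The wild-type sets overlapped for 9 of the 25 members. IAA8 had 132 to 155 CPM in Col-0 and 142 to 146 in Col-0-b. IAA12 had 20.6 to 27.4 and 24.4 to 27.1 CPM. IAA18 was the exception in direction, with 12.4 to 18.7 CPM in Col-0 and 24.1 to 25.7 in Col-0-b. GH3.6 had 47.5 to 71.9 CPM in Col-0 and 32.6 to 34.4 in Col-0-b, and the other 4 GH3 genes overlapped. GH3.2 varied widely within Col-0, with 17.95, 56.4 and 42.1 CPM, a range that held all 3 Col-0-b values (29.99, 23.0 and 21.5) and both bamboo values (36.3 and 30.9).

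**Figure D4:**
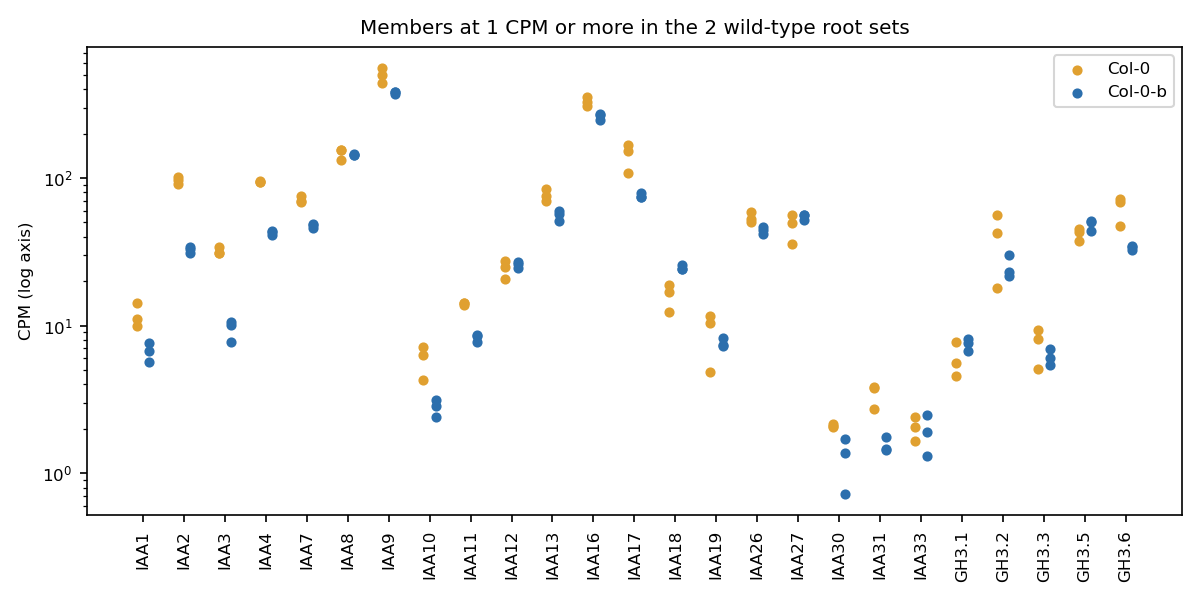
CPM (log axis) of the 25 members with a mean of at least 1 CPM in either wild-type set, with each of 3 Col-0 libraries in orange and each of 3 Col-0-b libraries in blue. IAA2, IAA3 and IAA4 show wide gaps with Col-0 above, IAA18 a gap with Col-0 below, and the GH3.2 libraries of Col-0 span those of Col-0-b.

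Some members adjoin each other among protein-coding genes: IAA3 is next to IAA17, IAA2 next to IAA7, and IAA1 next to IAA14. On the log2 scale IAA3 and IAA17 had fold changes of 0.28 (SE 0.14) and 0.27 (SE 0.08). IAA2 and IAA7 had 0.13 (SE 0.09) and 0.11 (SE 0.08), and IAA1 and IAA14 had 0.26 (SE 0.15) and -0.03 (SE 0.10). Between the wild-type sets these neighbours differed. The ratio of Col-0 to Col-0-b means was 3.4 for IAA3 and 1.87 for IAA17. It was 2.94 for IAA2 and 1.5 for IAA7, and 1.75 for IAA1 and 0.98 for IAA14. The span of 9 members (IAA3, IAA5, IAA9, IAA10, IAA11, IAA13, IAA27, IAA32 and IAA34) overlaps that of another annotated gene. No label or header names the strand setting of the counting, so reads of these 9 and their partners may not be told apart.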

How the data were processed

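Per the labels' protocols, libraries were made with a stranded mRNA kit and read as single ends. Trimmomatic, STAR 2.7.2a, featureCounts of Subread 1.6.5 and the build TAIR10 are named in the submitters' processing notes. For Col-0 the authors deposited whole-number read counts of each gene. For bamboo and Col-0-b the deposited signal was the gene count over a library's size factor (0.811 to 1.18); no label or header says how these factors were made. All values (100%) were whole multiples of a step within 0.01, so reads were recovered. WT columns were read as Col-0-b, the wild-type set listed with bamboo, a reading that the names alone do not settle. Another 6 columns of the raw-count table, with names that fit no single line, were not used.

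Values were compared as log2(normalized count + 1), which understates the change of low genes, for features of at least 10 in at least 2 libraries, with limma 3.58.1 (R 4.3.3; trended, robust, group as the only term, Benjamini-Hochberg over all tested features at 0.05). Levels of different genes were not compared, since no transcript length of this build was at hand. Symbols came from a RefSeq table of TAIR10.1, which held all 32 members. The procedure was tested on simulated data with changes of at least 2-fold in features of higher counts. These changes were larger than any member's fold change here, so the simulation does not tell the power for such small differences. The members and lists were chosen with earlier results of these data known, and the grouping of Aux/IAA genes by relationship after their values were seen. Values in every library are given for the 8 members of smallest p, the tested GH3 genes and the 4 Aux/IAA genes of highest CPM in Col-0-b. The 2 tested genes of smallest p per list are named, some of them by fold change only. Other members were named to account for all, and other list genes after their values were seen. No sequence is shown, as none was at hand, so the planned description by degron motif rests on published knowledge. Alternatives were a pseudocount of 8, no filter, TMM-rescaled values, edgeR 4.0.16, DESeq2 1.42.0, a replicate block and leaving out each library.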

Additional observations from a re-analysis of the deposited data

How the results depend on the processing

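The sign of all 28 fold changes was kept with edgeR, DESeq2, TMM-rescaled values, a pseudocount of 8 and no filter on low values, and 0 members were called in these 5 settings. Over all features, 14 were higher and 13 lower; no filter gave 46 and 29, with more features tested, and DESeq2 188 and 115 (the cause was not tested). Leaving out 1 library gave 6 to 894 features higher, 4 to 1052 lower, 0 to 2 members higher and a member median of 0.095 (without bamboo replicate 2) to 0.21 (without bamboo replicate 3). The 2 members were IAA4 and IAA17. They and the counts of 894 and 1052 arose when bamboo replicate 3 was left out. A genotype with 1 library left was given the spread of the other. Without Col-0-b replicate 1, the library of highest photosynthetic level, the member median was 0.14. Leaving out 1 library turned the sign of members near 0 or low: IAA6 (-0.45 to 0.86), IAA12 (-0.043 to 0.16), IAA13 (-0.074 to 0.12), IAA16 (-0.054 to 0.037), IAA20 (-1.11 to 0.21), IAA33 (-0.18 to 0.28), GH3.3 (-0.074 to 0.11) and GH3.6 (-0.0081 to 0.17), and of IAA14 (-0.092 to 0.039) and IAA28 (-0.0056 to 0.26).

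The genotypes share 2 replicate numbers, whose differences correlated at 0.079 across genes. This gave no sign that the numbers pair the libraries, but a single contrast of so few libraries cannot exclude it. With a replicate block 513 features were higher and 379 lower, and 1 member was called, GH3.2 at 0.60 (adjusted p = 0.00834, range over 11 alternatives 0.00834 to 0.654). IAA16 (0.014), IAA33 (-0.18) and GH3.3 (-0.074) then changed sign. Col-0-b replicate 1 does not enter the fold changes under the block, and why more features were called was not tested.

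Of the other listed genes, 4 of 38 were called with the block (AFB1, ARF6, GH3.17 and DAO2), 3 with DESeq2 and 1, GH3.17, with no filter. AFB1 and DAO2 were each called in 3 of 11 alternatives (adjusted p from 0.00263 to 0.416 and from 0.0241 to 0.674), and TIR1, ARF3, ARF8, TPR2 and TPL in 1 each, that without bamboo replicate 3. Depth limits the scarce members: 3 reads correspond to 2.54 to 3.7 normalized counts.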
